A study of Mus musculus with 6 samples.

Results

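Small RNA of mature sperm from the cauda epididymis was searched for miRNAs that are known from smooth muscle, connective tissue and blood vessels. Every feature of the miRNA table whose name holds mmu-miR-143, mmu-miR-145a, mmu-miR-199a, mmu-miR-199b, mmu-miR-214 or mmu-miR-126a was taken, either arm, which gave 11 of 778 features. The samples were 3 from stress-induced depressed mice (stress samples) and 3 from normal mice (normal samples), all 8-week-old C57BL/6 males with no further treatment or genotype in the labels. The labels do not say how stress was applied or whether each replicate is a different animal. The p-values therefore speak only of the spread among these 6 samples, which can be technical.

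The smooth muscle pair miR-143 and miR-145a is made from 1 host transcript and helps to hold smooth muscle cells in their contractile state. miR-199a and miR-214 are typical of fibroblasts and other mesenchymal cells, and 1 miR-199a copy shares the transcript Dnm3os with miR-214. miR-126a lies in Egfl7, a gene of endothelial cells, and supports blood vessel growth. Sperm are none of these cells, while the duct in which they are stored is wrapped in smooth muscle, connective tissue and capillaries.

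The mature sequences of the mesenchymal and endothelial features are shown because they decide which members can be told apart by sequencing. Each is printed 5′ to 3′ as the deposited table gives it, with the seed, bases 2 to 8, in capitals. RefSeq mature miRNAs (GRCm38.p6) held 5 of the 7 with the same letters.
miR-199a-5p: cCCAGUGUucagacuaccuguuc
miR-199b-5p: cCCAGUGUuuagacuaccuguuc
miR-199a-3p/miR-199b-3p: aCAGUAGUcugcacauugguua
miR-214-3p: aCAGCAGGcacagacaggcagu
miR-214-5p: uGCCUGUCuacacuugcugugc
miR-126a-3p: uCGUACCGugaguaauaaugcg
miR-126a-5p: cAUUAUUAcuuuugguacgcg

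miR-199a-5p and miR-199b-5p have 1 seed in common and differ only at C10U, counted from the 5′ end of miR-199a-5p. The 3p arms of miR-199a and miR-199b are identical and form 1 combined feature, called miR-199-3p here. Beyond the miR-199 5p pair, no other feature of the table had the seed of any sequence shown. In stress replicate 2 the deposited counts of miR-199a-5p and miR-199b-5p were 207.5 and 21.5, so reads were split between these features there, and the values of each alone are uncertain.

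The hairpins were placed by name in RefSeq and GENCODE M21, both on GRCm38; the build used by the authors is not given in the sources used here. Mir199a-2 (chr1:162217814-162217923, plus strand) and Mir214 (chr1:162223368-162223477, plus strand) lie in exons of the noncoding Dnm3os, opposite to an intron of Dnm3, with 5444 bases between them. Mir199a-1 (chr9:21496495-21496564, minus strand) and Mir199b (chr2:32318460-32318569, plus strand) each lie opposite to an intron, of Dnm2 and Dnm1. Mir126a (chr2:26591357-26591429, plus strand) overlaps an annotated exon of at least 1 Egfl7 transcript, on the strand of that gene. Mir145a and Mir143 lie on chromosome 18, within the span of the noncoding Carmn and 1301 bases apart.

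Depth was 1010203 to 1522849 miRNA reads in stress samples and 1083237 to 3067208 in normal samples. Normal replicate 3 was the deepest, and its ratio of miRNA reads to estimated tRNA-fragment reads (2.67) was above that of every other sample (0.367 to 0.835). The tRNA-fragment estimate is rough: at the depth chosen, only 21 to 25 of the 72 to 90 low values used per sample came out whole. The let-7 and miR-148a features together took 59.7% to 62.0% of the miRNA reads in stress and 72.9% to 74.6% in normal samples, so all other miRNAs together had a larger part of the reads in stress samples. Values are counts per 1000000 reads (CPM) with TMM scaling, which sets most miRNAs level between samples; the TMM factors were 1.303 ± 0.068 in stress and 0.772 ± 0.088 in normal samples (SD, n = 3 each). Germ-cell miRNAs were present in every sample, with miR-34c-5p at 435 to 623 CPM in stress and 300 to 720.0 CPM in normal samples.

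With TMM scaling, 2 of the 11 features rose in stress sperm, miR-145a-5p about 4-fold and miR-199-3p about 2.4-fold, and 0 fell (0 also at an unadjusted p under 0.05 and with DESeq2). Another 6 were tested and did not pass, and 3 were too low for the filter on counts (miR-143-5p, miR-126a-5p and miR-214-5p). Without normal replicate 3, the sample that stood apart, 3 of the 8 tested features were called higher, where 8.63% of the 255 miRNAs then tested were. The test was edgeR's quasi-likelihood test with Benjamini-Hochberg adjustment over all 236 tested miRNAs at a threshold of 0.05, where 2.54% of miRNAs were called higher and 10.2% lower in stress. At an unadjusted p under 0.05, 3 of the 8 were higher, beside 13.1% of all tested miRNAs higher and 19.1% lower, and with DESeq2 7.2% of all were called higher and 12.7% lower. The 8 tested features had log2 fold changes between 0.07 and 1.96 with a median of 0.52, beside a median of 0.00063 over all 236, of which 50.4% were positive. The groups did not overlap for 4 of the 8, all with stress higher, as for 18.6% of all tested miRNAs. miR-199b-5p is among these 4, among the 3 at an unadjusted p under 0.05 and among the 3 without normal replicate 3. It passed the filter on counts only through its stress samples, with 0.92, 3.59 and 6.52 CPM of all miRNA reads in normal replicates. Its place in these counts is therefore not independent of the filter. In these bulk samples, more cells of a type and more RNA per cell cannot be told apart.

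**Figure D1:**
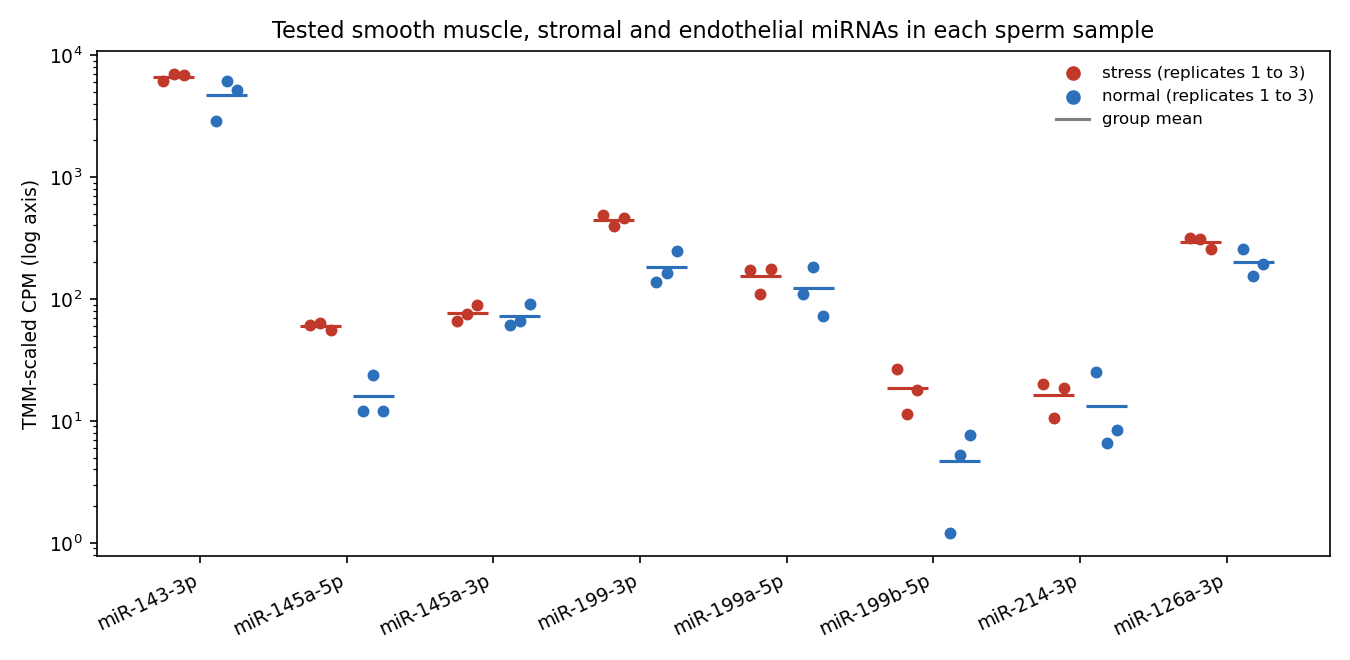
TMM-scaled CPM (log axis) of the 8 tested features in each stress and normal sample, with a bar at each group mean. For miR-145a-5p, miR-199-3p, miR-199b-5p and miR-126a-3p all 3 stress samples lie above all 3 normal samples, while the groups overlap for the other 4.

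miR-145a-5p, the strand of the miR-145a hairpin usually taken as its active guide, stood at 60.9, 63.5 and 56.1 CPM in stress replicates 1 to 3, against 12.0, 23.7 and 12.1 CPM in normal replicates 1 to 3. All stress samples lay more than 30 CPM above the highest normal sample. The SD was 3.72 CPM in stress and 6.72 CPM in normal samples (n = 3 each). The log2 fold change was 1.96 ± 0.35 (SE, n = 3 per group), with an adjusted p of 0.0072 in edgeR. Leaving out each sample in turn kept it between 1.78 and 2.33, with adjusted p-values from 0.0058 to 0.031 in edgeR. These levels rest on 78 to 120 reads per stress sample and 10 to 32 reads per normal sample.

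The other arm of the same hairpin, miR-145a-3p, did not follow. It had 65.3, 75.6 and 90.0 CPM in stress replicates, against 61.0, 65.8 and 91.1 CPM in normal replicates, with full overlap of the groups. Its log2 fold change was 0.07 ± 0.28 in edgeR (adjusted p = 0.87), and its sign turned under small changes of the processing. With at least 88 reads in each stress sample and 50 to 240 reads in normal samples it was counted at least as deeply as the 5p arm.

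miR-143-3p, the partner from the same transcript, was the most abundant of the 11 by far and ranked 16 or 17 among all features in the stress samples, against 19 to 28 in the normal samples. Stress replicates stood at 6088, 7016 and 6820.0 CPM, against 2860.2, 6142 and 5142 CPM in normal replicates. Normal replicate 1 was low and normal replicate 2 lay above stress replicate 1, so the groups overlapped. The log2 fold change of 0.49 ± 0.28 did not pass in edgeR (adjusted p = 0.24). Its passenger arm miR-143-5p was nearly unread, with 4, 14 and 10 reads in stress samples and 3, 0 and 13 reads in normal samples. The count of 0 allows up to 2.70 CPM of all miRNA reads in normal replicate 2 (3 reads of its total, counting error only).

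A ratio of 2 miRNAs within a sample needs no scaling factor. The log2 ratio of miR-145a-5p to miR-143-3p was −6.64, −6.79 and −6.92 in stress replicates, against −7.90, −8.02 and −8.73 in normal replicates. Every stress sample lay above every normal sample, by 1.43 on the log2 scale between the means, a 2.69-fold higher ratio. The exact permutation test, two-sided, gave p = 0.1, the smallest that 3 against 3 allow, and an adjusted p of 0.4 over the 4 ratios tested.

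The balance of the miR-145a arms was examined after the values had been seen, and it was not tested. The log2 ratio of miR-145a-5p to miR-145a-3p was −0.10, −0.25 and −0.68 in stress replicates, against −2.35, −1.47 and −2.91 in normal replicates. The 3p arm had more reads in all 6 samples, by a smaller factor in every stress sample than in any normal sample. Such a pattern was frequent: of 48 hairpins with both arms tested, 29.2% had a higher 5p to 3p ratio in every stress sample than in any normal sample, and 52.1% did not overlap in one direction or the other. By size of the difference, miR-145a ranked 10 among those 48.

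**Figure D2:**
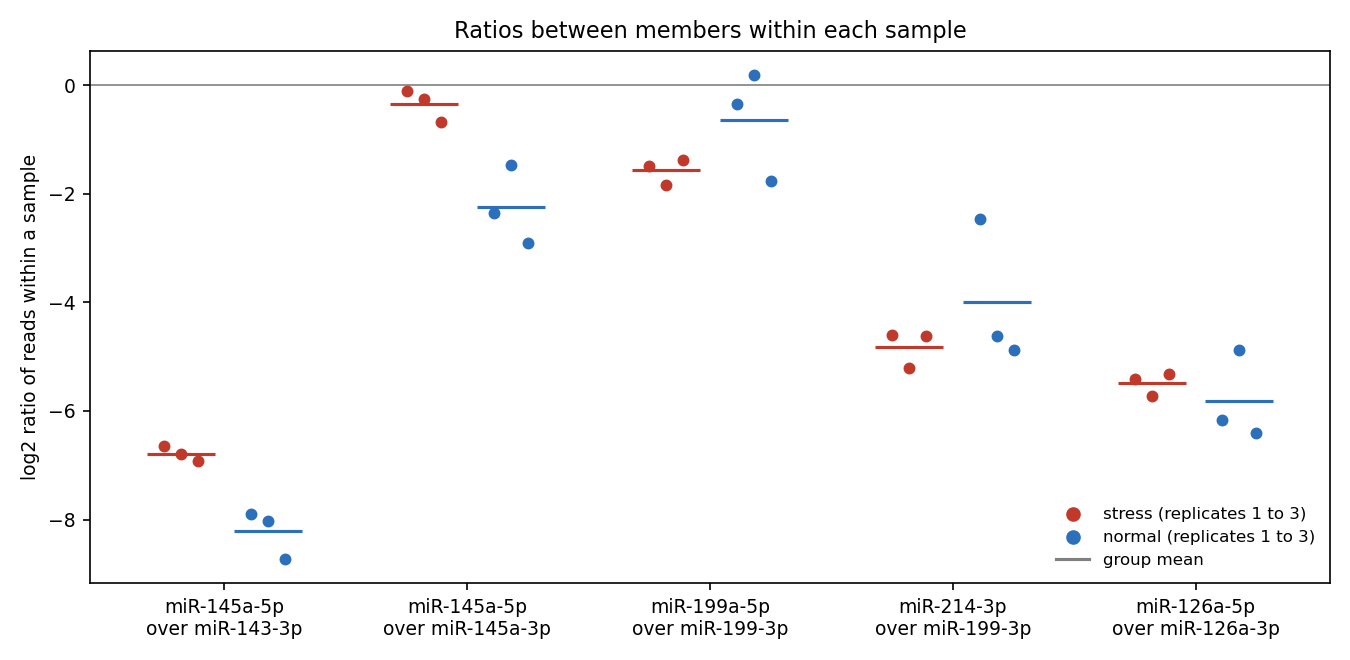
Log2 ratio of reads between pairs of members within each stress and normal sample, with a bar at each group mean. The groups are separate for miR-145a-5p over miR-143-3p and for miR-145a-5p over miR-145a-3p, and overlap for the other 3 ratios.

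miR-199-3p, a miRNA of mesenchymal cells that can come from 3 hairpins, stood at 486.3, 393 and 462 CPM in stress replicates, against 138.8, 162 and 245 CPM in normal replicates. The lowest stress sample, replicate 2, lay well above the highest normal sample, replicate 3. The log2 fold change was 1.29 ± 0.30 (SE, n = 3 per group), with an adjusted p of 0.017 in edgeR. Without stress replicate 3 the log2 fold change was 1.27 and did not pass (adjusted p = 0.053 in edgeR), and without each of the other samples it did.

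miR-199b-5p, from the Mir199b hairpin alone, had 26.7, 11.4 and 17.99 CPM in stress replicates, against 1.20, 5.27 and 7.59 CPM in normal replicates. The groups did not overlap, but normal replicate 1 rests on 1 read and normal replicate 2 on 4 reads. The feature passed the filter on counts only through the stress samples. The log2 fold change was 1.79 ± 0.56 and narrowly missed the threshold in edgeR (adjusted p = 0.051). It was called with DESeq2 (1.90, adjusted p = 0.032) and in 4 of 7 alternative settings in all. With 1 sample left out it was called in 1 of 6 fits, without normal replicate 3 (2.55, adjusted p = 0.044 in edgeR).

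miR-199a-5p, which shares its seed with miR-199b-5p, had 173, 109.8 and 177 CPM in stress replicates, against 109, 184 and 72.1 CPM in normal replicates. The highest value of all 6 belonged to normal replicate 2, and the log2 fold change of 0.35 ± 0.37 did not pass (adjusted p = 0.54 in edgeR). Of the miR-199 5p reads, miR-199b-5p made up 13.4%, 9.39% and 9.23% in stress replicates and 1.09%, 2.78% and 9.52% in normal replicates. Normal replicate 3, at 9.52%, lay among the stress samples, so the groups overlapped.

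Across the 6 samples miR-199-3p varied with miR-199b-5p (Pearson r = 0.95 on log2 CPM) and with miR-145a-5p (r = 0.86) more closely than with miR-199a-5p (r = 0.26). These are descriptions over 6 samples of 2 groups, which share library and depth. The log2 ratio of miR-199a-5p to miR-199-3p was −1.49, −1.84 and −1.38 in stress replicates, against −0.35, 0.19 and −1.77 in normal replicates. Normal replicate 2 had more 5p than 3p reads and normal replicate 1 had fewer, while normal replicate 3 lay within the range of the stress samples, and the difference of −0.93 did not pass (exact permutation p = 0.3, adjusted p = 0.6, two-sided).

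miR-214-3p, the guide strand of the miRNA that shares Dnm3os with Mir199a-2, had 20.05, 10.6 and 18.7 CPM in stress replicates, against 25.1, 6.58 and 8.35 CPM in normal replicates. The groups overlapped, with the highest value in normal replicate 1, and the log2 fold change of 0.35 ± 0.54 did not pass (adjusted p = 0.68 in edgeR). It was 1.07 without normal replicate 1 and 0.05 without normal replicate 3, and was called in neither fit. It rests on 20 to 27 reads per stress sample and 5 to 22 reads per normal sample. Its log2 ratio to miR-199-3p was −4.60, −5.22 and −4.63 in stress replicates and −2.47, −4.62 and −4.88 in normal replicates (exact permutation p = 0.5, two-sided). miR-214-5p had 5, 7 and 0 reads in stress replicates and 4, 2 and 7 in normal replicates, where 0 reads allow up to 2.97 CPM of all miRNA reads.

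miR-126a-3p, the strand with which miR-126 acts in endothelial cells, had 316, 308 and 258 CPM in stress replicates, against 257, 154 and 192 CPM in normal replicates. The groups were just separate, with stress replicate 3 barely above normal replicate 1. The log2 fold change of 0.55 ± 0.28 did not pass in edgeR (adjusted p = 0.19). miR-126a-5p had 10, 11 and 9 reads in stress replicates and 3, 4 and 6 in normal replicates. Pooled over each group this was 8.38 CPM of all miRNA reads in stress samples (95% Poisson interval 5.66 to 12.0) and 2.47 in normal samples (1.32 to 4.22), intervals that cover counting error only. The log2 ratio of the arms, 5p to 3p, was −5.41, −5.73 and −5.32 in stress replicates and −6.16, −4.87 and −6.40 in normal replicates, with overlap (exact permutation p = 0.6, two-sided).

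In the means of stress samples the order of the levels was miR-143-3p (6641 ± 489 CPM, SD, n = 3), miR-199-3p (447 ± 48.4), miR-126a-3p (294 ± 31.4), miR-199a-5p (153 ± 37.7), miR-145a-3p (77.0 ± 12.4), miR-145a-5p (60.2 ± 3.72), miR-199b-5p (18.7 ± 7.70) and miR-214-3p (16.4 ± 5.12). Samples of neighbours in this order overlapped only for the last pair, and the 3 untested arms lay below it. In normal samples it was miR-143-3p (4715 ± 1682 CPM, SD, n = 3), miR-126a-3p (201 ± 52.1), miR-199-3p (182 ± 56.0), miR-199a-5p (122 ± 57.2), miR-145a-3p (72.6 ± 16.2), miR-145a-5p (15.9 ± 6.72), miR-214-3p (13.4 ± 10.2) and miR-199b-5p (4.68 ± 3.24). There the samples of all neighbours overlapped except at the step below miR-143-3p and at that between the miR-145a arms. A read covers a whole mature miRNA, so no correction for length applies, though miRNAs of different sequence can be captured unequally.

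As shares of all miRNA reads, the 11 features took 0.934%, 0.994% and 1.09% in stress replicates, against 0.268%, 0.461% and 0.496% in normal replicates. miR-143-3p alone was 84.0% to 87.6% of these reads in stress and 82.3% to 91.0% in normal samples. Without it the share was 0.141% ± 0.016 in stress and 0.0480% ± 0.0066 in normal samples (SD, n = 3 each). All 3 genomic groups were separate on this scale. The miR-199 and miR-214 features stood at 0.0833% ± 0.0154 in stress and 0.0250% ± 0.0037 in normal samples, and those of miR-126a at 0.0390% ± 0.0026 in stress and 0.0159% ± 0.0047 in normal samples. Of all 236 tested miRNAs taken singly, 56.8% had a higher share in every stress sample than in any normal sample. Separation on this scale was therefore frequent in the table. Taken singly, each tested member except miR-214-3p was separate in this way.

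Markers of other cells were measured on the same scale, and their part in the results was not tested. The 14 features of miRNAs known from epithelia took 3.58% to 3.87% in stress and 1.77% to 2.27% in normal samples. The 8 leukocyte features took 0.135% to 0.189% in stress and 0.0360% to 0.0814% in normal samples. This sum mainly follows miR-146a-5p, at 968 ± 76.4 CPM in stress and 531 ± 173 CPM in normal samples (TMM-scaled, SD, n = 3). The next, miR-150-5p, stood at 212 ± 82.5 CPM in stress and 85.6 ± 65.8 CPM in normal samples. Of these 8, miR-155-5p and miR-150-3p were at 0 in 2 normal samples each and miR-223-3p and miR-142a-5p in 1 each. In stress samples 0 of the 8 were at 0. The counts were low, with 5, 12 and 7 reads of miR-155-5p in stress replicates and 0, 0 and 9 in normal replicates. Such zeros were not particular to this list. Over the whole table, fewer miRNAs were detected in normal replicates 1 and 2 than in any stress sample. Every other list also held features at 0 in normal samples. The 6 red blood cell features took 0.0268% to 0.0817% in stress and 0.0341% to 0.102% in normal samples. The 25 germ-cell features took 0.710% to 0.862% in stress and 0.676% to 0.883% in normal samples. Features of other endothelial miRNAs took 0.0828% to 0.113% in stress and 0.0807% to 0.0884% in normal samples. Features of other smooth muscle and stromal miRNAs took 2.49% to 2.80% in stress and 1.19% to 1.62% in normal samples. The groups overlapped for the red blood cell, germ-cell and other endothelial features. They were separate for the other smooth muscle and stromal, epithelial and leukocyte features.

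**Figure D3:**
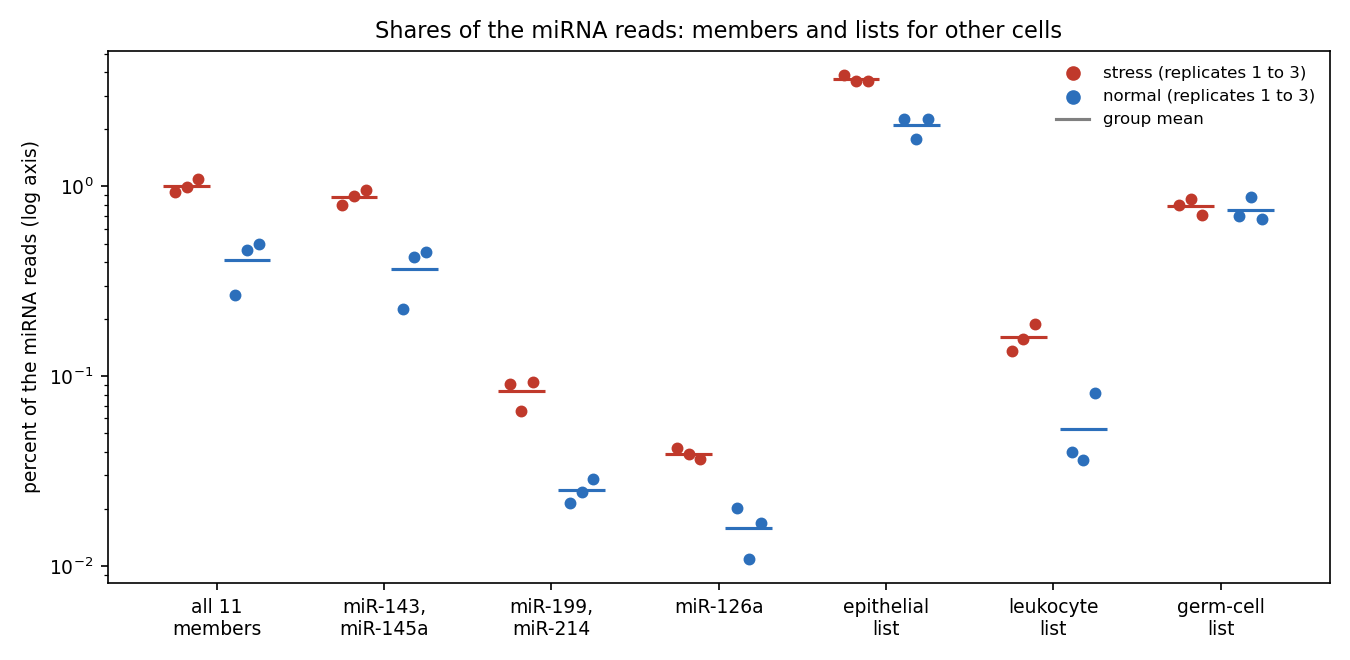
Percent of the miRNA reads (log axis) taken by the 11 members, by their 3 genomic groups and by lists of epithelial, leukocyte and germ-cell miRNAs, in each stress and normal sample with a bar at each group mean. Stress samples lie above normal samples for the members and for the epithelial and leukocyte lists, and overlap with them for the germ-cell list.

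Set against these lists within each sample, the member reads were 2.41-fold higher relative to germ-cell miRNAs in stress samples. The log2 ratio was 0.22, 0.20 and 0.62 in stress replicates and −1.39, −0.94 and −0.45 in normal replicates, with no overlap. Leukocyte miRNAs over germ-cell miRNAs were 3.09-fold and epithelial over germ-cell miRNAs 1.67-fold higher in stress samples, also with no overlap. Separation from the germ-cell list was thus not particular to the members. The germ-cell share itself overlapped between groups, while 56.8% of the 236 tested miRNAs had a higher share in every stress sample. Relative to epithelial miRNAs the members overlapped between groups, at log2 ratios of −2.05, −1.85 and −1.73 in stress replicates and −3.08, −1.94 and −2.19 in normal replicates. Relative to leukocyte miRNAs they overlapped as well, at 2.78, 2.66 and 2.52 in stress and 2.75, 3.68 and 2.61 in normal replicates. The leukocyte list is mostly miR-146a-5p. Without it the difference of this log2 ratio was −0.48, against −0.35 with it. These ratios are descriptions and carry no test.

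By genomic group, the ratio to the epithelial list differed most, in size, for the miR-199 and miR-214 reads. Their log2 ratio was −5.40, −5.77 and −5.28 in stress replicates and −6.72, −6.17 and −6.29 in normal replicates, a 1.88-fold difference with no overlap. miR-126a differed from the epithelial list by 1.43-fold without overlap, and miR-143 with miR-145a by 1.42-fold with overlap. How often other miRNAs separate from the epithelial list was not examined. Relative to the leukocyte list, every genomic group overlapped between stress and normal samples. The differences there were 1.02-fold for miR-199 with miR-214, 0.78-fold for miR-126a and 0.77-fold for miR-143 with miR-145a.

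Other miRNAs of muscle, stroma and endothelium had fold changes of both signs. Of 16 tested features from a list of other smooth muscle and stromal miRNAs, which also holds miR-1a and miR-133a of striated muscle, 0 rose and 1 fell with TMM, as with DESeq2 (10 positive and 6 negative, median log2 fold change 0.11; 1 higher and 1 lower at an unadjusted p under 0.05). The one that fell was miR-125b-1-3p, a passenger strand, at 49.3 ± 6.60 CPM in stress and 103.8 ± 11.4 CPM in normal samples (SD, n = 3), by 1.07 on the log2 scale (adjusted p = 0.024 in edgeR). miR-21a-5p, abundant in fibroblasts, had a log2 fold change of 0.04 ± 0.21. Of 5 tested features from a list of other endothelial miRNAs, 0 rose and 1 fell (median −0.24; 1 higher and 2 lower with DESeq2 and at an unadjusted p under 0.05). It was miR-139-3p (−1.45 ± 0.42, adjusted p = 0.044 in edgeR). miR-221-3p and miR-222-3p, which come from 1 cluster, had opposite signs (0.93 ± 0.30 and −0.93 ± 0.28) and did not pass (adjusted p = 0.055 and 0.051 in edgeR). In edgeR with TMM, 0 of 10 tested epithelial features passed (median 0.41), with 1 higher and 1 lower at an unadjusted p under 0.05 and 1 higher with DESeq2. Of 5 tested leukocyte features 0 passed (3 positive and 2 negative, median 0.87), with 3 higher at an unadjusted p under 0.05 and with DESeq2. The positive ones included miR-146a-5p (0.87 ± 0.29, adjusted p = 0.063 in edgeR) and miR-150-5p (1.27 ± 0.49, adjusted p = 0.11 in edgeR). miR-223-5p, a passenger strand of the myeloid miR-223, was among the negative ones at −0.69 ± 0.48, with its highest level, 37.1 CPM, in normal replicate 1. The other arm, miR-223-3p, went the other way, with 19, 36 and 11 reads in stress replicates and 0, 2 and 13 in normal replicates. Of 3 tested red blood cell features 0 passed (median −1.47), with 2 lower at an unadjusted p under 0.05 and with DESeq2. Of 17 tested germ-cell features 3 fell (median −0.29; 4 lower with DESeq2 and 5 at an unadjusted p under 0.05), among them miR-871-3p (−1.40 ± 0.31, adjusted p = 0.016 in edgeR).

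The pattern most like that of miR-143-3p over the 6 samples, by Pearson r of log2 CPM among tested miRNAs outside the 11, was that of miR-1839-5p (r = 0.98), miR-30a-5p (r = 0.98) and miR-23b-3p (r = 0.97). For miR-199-3p these were miR-3068-3p (r = 0.97), miR-671-5p (r = 0.97) and miR-185-5p (r = 0.96). For miR-126a-3p they were miR-200c-3p (r = 0.96), a main epithelial miRNA, miR-339-5p (r = 0.93) and miR-9-5p (r = 0.90). Only miR-185-5p among the 9 passed the threshold with more CPM in stress (147.98 against 61.7 CPM in normal samples, adjusted p = 0.0082 in edgeR).

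How many members were called depended on the scaling. With the miRNA reads of each sample as its library size, all 236 miRNAs had a median of 0.76, and 96 were called higher and 10 lower, against 6 higher and 24 lower with TMM. There 6 of the 8 tested features were called higher, where 40.7% of all miRNAs were. Relative to that shifted median miR-145a-5p was at 1.96 and miR-199-3p at 1.26, while the values were 0.50 for miR-143-3p and 0.53 for miR-126a-3p on the log2 scale. Scaled to the total of all 3 deposited tables, with 1.27% of all miRNAs called higher, 0 of the 8 passed in edgeR, with 3 at an unadjusted p under 0.05, where 5.51% of all miRNAs were higher. miR-145a-5p was at 2.31 ± 0.74 (adjusted p = 0.063) and miR-199-3p at 1.36 ± 0.65 (adjusted p = 0.41) on that scale. In all 3 scalings the 8 fold changes were positive, as were those of 80.1% of all miRNAs with the miRNA total and 62.3% with the total of the 3 tables. Relative to the median of all miRNAs, miR-145a-3p was at −0.05 with the total of the 3 tables.

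**Figure D4:**
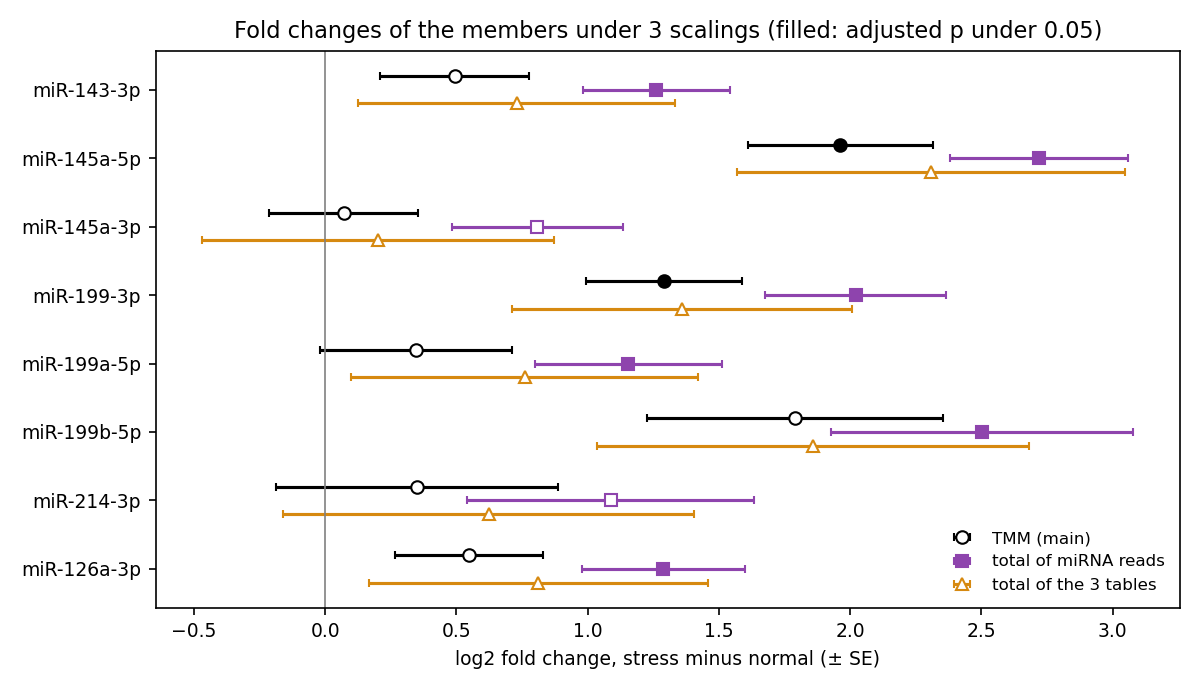
Log2 fold change, stress minus normal, with its SE for the 8 tested features under TMM, under the total of miRNA reads and under the total of the 3 tables, filled where the adjusted p was under 0.05. All points lie right of 0, miR-145a-5p is farthest right under each scaling, and the filled points number 2 with TMM, 6 with the miRNA total and 0 with the total of the 3 tables.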

How the data were processed

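The authors deposited 3 tables with 1 column per sample. The miRNA table holds expected counts (92.0% of values whole within 0.001, column sums unequal), and the authors scaled the piRNA and tRNA-fragment tables to RPM over each table itself, as the deposited values show. Libraries were made from TRIzol-extracted RNA by means of an Illumina TruSeq RNA kit, per the labels' protocols. Bowtie was used, per the submitters' processing notes; for its version, the genome build and the counting rule, nothing is stated (not given in the sources used here).

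Deposited counts, rounded, went into edgeR 4.0.16 (R 4.3.3; TMM, glmQLFit and glmQLFTest after filterByExpr at a minimum of 10), two-sided, stress minus normal, with Benjamini-Hochberg adjustment over 236 miRNAs. The SE was the log2 fold change divided by the square root of F. DESeq2 1.42.0 was an alternative. The total of the 3 tables adds miRNA counts, piRNA reads recovered from RPM steps and tRNA-fragment reads estimated from them. Arm ratios over all hairpins used counts plus 0.5. Correlations used log2 CPM with a prior count of 2. All 11 members were reported. From the lists for other cells at most 3 features each were eligible for naming, first by p among called features, then by abundance. The members and lists were chosen with earlier results of these data known. Depth of 1010203 to 3067208 miRNA reads makes 3 reads worth 0.978 to 2.97 CPM.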

Additional observations from a re-analysis of the deposited data

How the results depend on the processing

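The number of miRNAs called was 30 with TMM, 106 with the miRNA total, 6 with the total of the 3 tables, 47 with DESeq2 and 49 with no filter, and it lay between 17 (without stress replicate 3) and 55 (without normal replicate 3) with 1 sample left out. Of the members 2 were called with TMM, 6 with the miRNA total and 0 with the total of the 3 tables; leaving out 1 sample gave 1 to 3. The cause of these differences was not tested. miR-145a-3p turned to −0.049 with TMM computed without let-7 and miR-148a and to −0.0031 with a minimum count of 50, and lay between −0.0497 and 0.31 with 1 sample left out. The difference in the members' share, 0.597 percentage points of all miRNA reads, was 1.02 points of the reads outside let-7 and miR-148a. Deviations from the group mean correlated at 0.11, −0.21 and 0.12 between samples of the same number, and not every sample correlated best with its own number. With 3 samples per group this cannot decide whether the replicate numbers pair the samples. With the number as a block 28 miRNAs and 2 members were called, and the difference of the miR-145a-5p to miR-143-3p ratio stayed 1.43. Low reads limit miR-199b-5p, miR-214-3p and the 3 untested arms.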

Other observations

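miR-1a-3p, a miRNA of striated and heart muscle, stood at 3496 CPM in stress replicate 1, against 286 and 261 CPM in stress replicates 2 and 3 and 151.9, 492 and 129 CPM in normal replicates. miR-133a-3p, its cluster partner, was also highest in stress replicate 1, at 31.2 CPM against 6.35 and 7.56 CPM in the other stress samples and 3.95 to 4.79 CPM in normal samples. Both were singled out after their values were seen. miR-145a-5p, at 60.9 CPM in stress replicate 1, lay between the other stress samples. That replicate was the highest of all samples for miR-199-3p (486.3 CPM), miR-199b-5p (26.7 CPM) and miR-126a-3p (316 CPM). It was the lowest of the stress samples for miR-143-3p (6088 CPM) and miR-145a-3p (65.3 CPM). The source of these levels was not tested.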
